A study of Mus musculus with 23 samples.

Results

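Axon guidance genes code for the secreted and membrane-bound cues, and their receptors, that steer growing nerve fibres. Here 49 mouse genes of this kind were followed, out of 35523 genes with a name in the tables, and they were taken as the named ligands and receptors of 4 cue systems. The ligands are 15 semaphorins, 3 slits, 2 netrins and 6 ephrins. The receptors are 8 plexins, 2 Robo receptors, 4 netrin receptors and 9 Eph receptors. Reads were summed over all transcripts of each gene in 23 RNA-seq libraries.

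The libraries come from co-cultures of mouse pancreatic stellate cells (PSCs, mesenchymal cells of the pancreas that take on a fibroblast form in tumours) with mouse pancreatic tumour organoids, tumour cells grown as hollow or solid structures in gel. Both partners shared Matrigel for 3.5 days in medium labelled reduced/control before flow sorting split them into fractions. The PSC fraction holds 4 libraries of wild-type PSCs, named Rosa in the labels (PSC4 Rosa with each of the organoid lines T6-LOH, T12-LOH and T69A, and PSC5 Rosa with T6-LOH), and 8 libraries labelled Egfr knockout (KO). The KO libraries are clones A3 and B4 of PSC4, each with the same 3 organoid lines, and clones C5 and D4 of PSC5, each with T6-LOH. The organoid fraction holds 4 libraries of organoids grown with WT PSCs and 7 of organoids grown with KO PSCs (clones A3 and B4 with T6-LOH and T12-LOH, clone B4 with T69A, clones C5 and D4 with T6-LOH). All KO genotypes belong to the PSCs; the label of an organoid library gives the genotype of the PSCs beside it, and the organoids' own genotype is not stated in the labels used here. Libraries of 1 clone are not separate clones, and nothing in the labels says that libraries came from separate cultures other than the named ones, so the p-values measure the spread between these libraries only.

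Semaphorins are secreted or membrane-anchored ligands that bind plexins, the class 3 members mostly together with the co-receptors neuropilin 1 and 2. Slits bind Robo receptors and mostly repel, netrins attract through Dcc and neogenin and repel through Unc5 receptors, and ephrins are bound to the membrane and signal into the Eph-bearing cell and back into their own cell. Outside the nervous system the same systems act in blood vessel growth, epithelial shape and cell sorting, and several of these families have been studied in pancreatic cancer and its nerves.

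Depth was similar in both fractions, from 21823084 to 34828131 estimated counts in PSC libraries and from 23814409 to 34643087 in organoid libraries. Levels are given as CPM (counts scaled by library size) for 1 gene across libraries and as TPM (a level per transcript length) between genes. All 12 fibroblast markers were above 1 CPM on average in PSC libraries and all 12 epithelial markers in organoid libraries. Their summed level was 5313 to 16640 CPM for fibroblast markers in PSC libraries against 1.69 to 23.0 in organoid libraries, and 14880 to 20560 CPM for epithelial markers in organoid libraries against 35.7 to 166 in PSC libraries. Shares of the own level were taken over the markers abundant in their own fraction, 10 fibroblast and 12 epithelial. The median share per library was 0 to 0.179% for fibroblast markers in organoid libraries and 0.0594 to 0.740% for epithelial markers in PSC libraries. Single markers reached 0.560% in organoid and 2.30% in PSC libraries. Of 12 neural or Schwann markers, 2 in PSC and 1 in organoid libraries averaged at least 1 CPM. Sox10 was at 0 in every organoid library and Th in every PSC library. These markers summed to 24.2 to 57.15 CPM in PSC and 1.79 to 6.95 CPM in organoid libraries. All 4 that were tested between the fractions were higher in PSCs, with a median log2 fold change of 2.90. Egfr itself stood at 278, 279.9, 323 and 419.5 CPM in the WT PSC libraries with T6-LOH, T12-LOH and T69A (PSC4) and T6-LOH (PSC5), at 57.4, 100.4 and 98.4 in clone A3, at 116, 214 and 201 in clone B4, at 110.1 in clone C5 and at 345 in clone D4. The library labelled KO clone D4 lay inside the WT range, so its RNA level does not check its label. In bulk libraries such as these, fewer cells of a type and less RNA per cell cannot be told apart. Of the 49 genes, 8 share exon bases with a gene on the opposite strand in GENCODE M21 (Efna4, Epha1, Ephb4, Plxna1, Plxna4, Plxnb1, Sema4c and Unc5c), and since strandedness was not given in the sources used here, reads of those stretches cannot be told apart from the antisense gene.

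The promoters of 6 members are printed because their genes mark the ends of the split between the fractions described next. They are the 3 members with the largest difference on each side for which RefSeq lists a window that starts within 30 bases of the start of the most abundant transcript. RefSeq held a window for 41 of the 49 members. Members on a chromosome set aside beforehand were not checked for distance, and 28 of the others met it. Each line gives the 250 bases before the RefSeq start on GRCm38.p6, read 5′ to 3′ on the gene's strand, with matches to 5 short motifs in capitals. The motifs, searched on both strands, were the GC box GGGCGG, the AP-1 letters TGANTCA, the TEAD letters GGAATG, the E-box CACCTG and the TATA letters TATAAA.
Epha3, higher in PSCs, chr16:63864176-63864425, minus strand: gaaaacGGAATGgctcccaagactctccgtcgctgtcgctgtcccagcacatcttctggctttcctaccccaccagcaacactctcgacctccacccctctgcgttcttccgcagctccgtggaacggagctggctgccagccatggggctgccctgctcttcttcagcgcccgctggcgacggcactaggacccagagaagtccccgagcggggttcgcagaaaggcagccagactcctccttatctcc
Sema5a, higher in PSCs, chr15:32244563-32244812, plus strand: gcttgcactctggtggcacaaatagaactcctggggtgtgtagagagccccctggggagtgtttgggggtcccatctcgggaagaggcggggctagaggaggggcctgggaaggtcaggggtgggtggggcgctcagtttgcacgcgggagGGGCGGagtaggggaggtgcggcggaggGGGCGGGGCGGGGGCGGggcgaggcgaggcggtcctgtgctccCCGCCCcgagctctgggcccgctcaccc
Robo1, higher in PSCs, chr16:72662899-72663148, plus strand: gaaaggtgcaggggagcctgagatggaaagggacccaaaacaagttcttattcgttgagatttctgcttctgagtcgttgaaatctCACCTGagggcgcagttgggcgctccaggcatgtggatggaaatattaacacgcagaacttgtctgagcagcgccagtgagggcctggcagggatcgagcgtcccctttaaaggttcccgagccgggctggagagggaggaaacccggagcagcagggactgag
Sema3e, higher in organoids, chr5:14025026-14025275, plus strand: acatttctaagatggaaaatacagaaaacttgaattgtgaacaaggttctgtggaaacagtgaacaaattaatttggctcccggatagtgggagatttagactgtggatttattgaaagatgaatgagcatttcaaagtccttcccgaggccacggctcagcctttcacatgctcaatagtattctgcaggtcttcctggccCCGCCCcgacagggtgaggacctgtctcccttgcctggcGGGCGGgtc
Sema4a, higher in organoids, chr3:88455762-88456011, minus strand: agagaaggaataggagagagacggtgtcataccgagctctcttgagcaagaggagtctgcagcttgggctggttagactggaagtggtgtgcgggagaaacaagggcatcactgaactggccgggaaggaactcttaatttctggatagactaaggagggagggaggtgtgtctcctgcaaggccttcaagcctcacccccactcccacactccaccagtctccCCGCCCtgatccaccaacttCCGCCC
Epha4, higher in organoids, chr1:77515089-77515338, minus strand: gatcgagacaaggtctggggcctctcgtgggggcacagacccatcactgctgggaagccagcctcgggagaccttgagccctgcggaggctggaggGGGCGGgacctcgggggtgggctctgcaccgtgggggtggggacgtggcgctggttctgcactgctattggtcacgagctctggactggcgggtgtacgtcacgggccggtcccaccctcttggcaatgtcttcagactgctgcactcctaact

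A GC box was found in 4 of these 6 windows, against 32.7% of all 32841 RefSeq windows of the same length, and in windows of both sides. The Sema5a window held 5 matches, 3 of them in 1 unbroken run of capitals, with 72.0% G and C and 17 CpG dinucleotides. The Epha3 window held 1 match to the TEAD letters (12.6% of all windows) and the Robo1 window 1 E-box (17.2%). Neither the AP-1 letters (6.8% of all windows) nor the TATA letters (12.4%) occurred in the 6. The Sema3e window had the lowest G and C content of the 6, at 48.0% with 7 CpG, against a median of 52.4% and 6.0 CpG over all windows. These matches describe the letters of the windows only.

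The axon guidance genes were found on both sides of the split between the cell types. Between the PSC and the organoid fraction 45 of the 48 members tested differed at an adjusted p under 0.05 (93.8%; edgeR's quasi-likelihood test, Benjamini-Hochberg adjusted over all genes), against 81.9% of all 15573 genes tested, so most genes of any kind differed between these cell types. Pairing of the fractions by culture was not part of this test. The median size of the difference was 2.16 on the log2 scale among the members and 0.81 among all genes. Of all genes tested, 41.6% were higher in PSCs and 40.3% in organoids, beside 22 and 23 of the 48 members. Of the ligands, 9 were higher in PSCs, 14 higher in organoids and 3 did not pass. Of the receptors, 13 were higher in PSCs and 9 in organoids. Dcc, the classical attractive netrin receptor, had 9 reads in all 23 libraries together and was not tested. In what follows, a value after ± is the SE beside a log2 fold change and the SD over libraries beside a level, with 12 PSC and 11 organoid libraries.

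**Figure D1:**
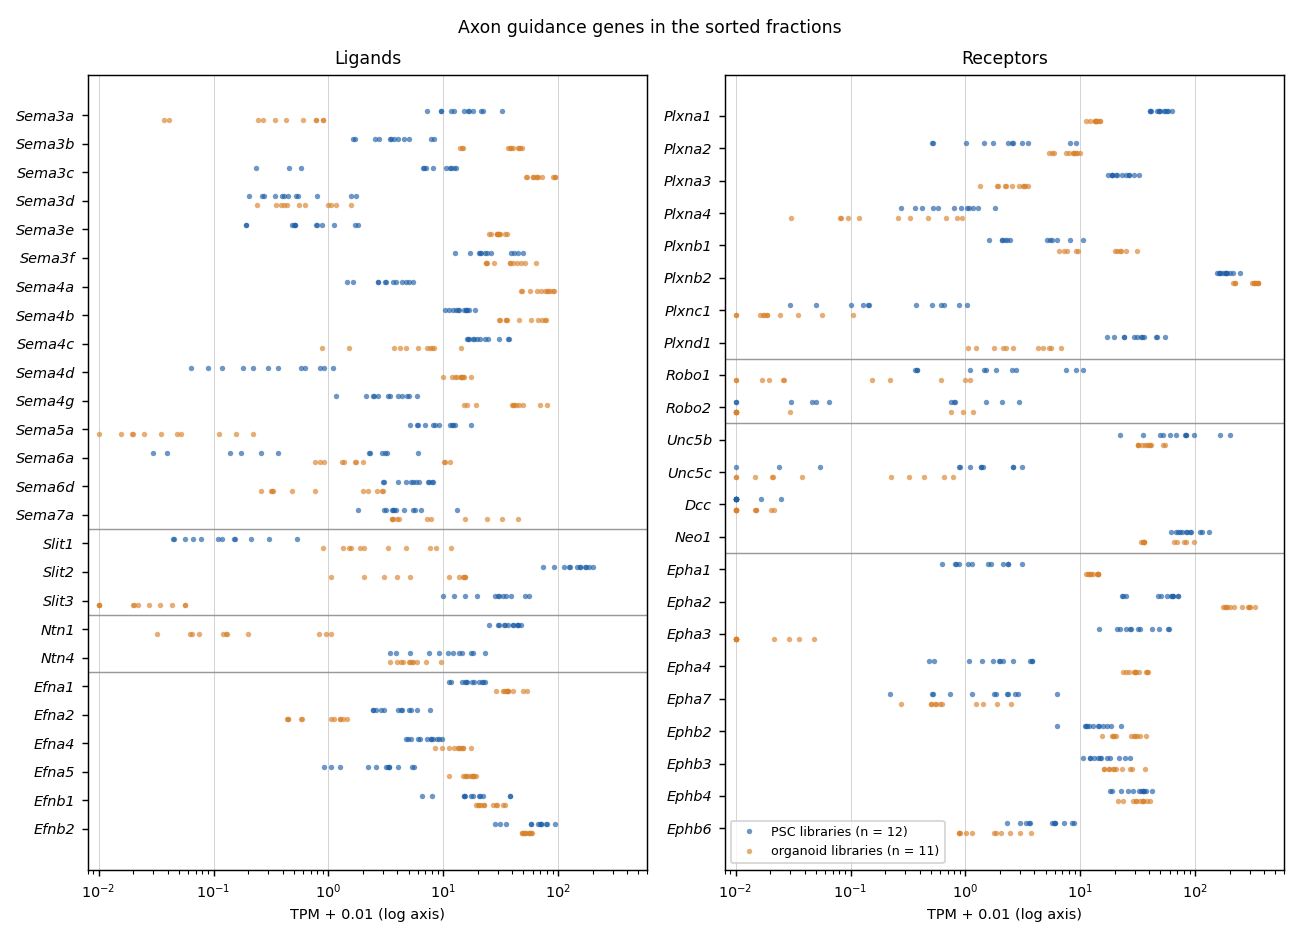
Level of each of the 49 genes in every library as TPM plus 0.01 on a log axis, PSC libraries in blue and organoid libraries in orange, ligands left and receptors right, families separated by lines. Slit2 and Slit3, Ntn1, Sema5a and Epha3 lie far to the right in PSCs, and Sema4a, Sema3e, Sema4d, Epha2 and Epha4 in organoids. Plxnb2 has the highest mean level of any receptor in both.

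Summed over each family, slits and netrins were higher in PSCs and semaphorins and Eph receptors in organoids. The 3 slits together reached 174 ± 40.4 TPM (SD, n = 12) in PSC libraries and 13.3 ± 3.62 (n = 11) in organoid libraries, and the 2 netrins 49.3 ± 8.74 and 5.73 ± 1.65. The 15 semaphorins summed to 124 ± 9.49 TPM in PSC and 380 ± 31.2 in organoid libraries, and the 9 Eph receptors to 158 ± 28.1 and 366 ± 55.8. In each of these 4 families the range of libraries did not overlap between the fractions. The 8 plexins were nearer to each other, at 301 ± 35.5 TPM in PSCs and 350 ± 62.9 in organoids, as were the 6 ephrins at 113 ± 16.6 and 148 ± 12.7. The 4 netrin receptors summed to 173 ± 72.2 and 94.8 ± 27.0 TPM, and the 2 Robo receptors to 4.03 ± 4.53 and 0.541 ± 0.842.

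Among the semaphorins, 4 were higher in PSCs, 9 higher in organoids and 2 did not pass. Sema5a, a membrane semaphorin with thrombospondin repeats, ranged over 5.11 to 17.5 TPM (median 8.83) in PSC libraries and 0 to 0.210 TPM (median 0.0248) in organoid libraries, a log2 fold change (PSC over organoid) estimated at 8.63 (SE 0.28, adjusted p = 2.79e-14). Sema3a, the secreted repellent of sensory axons, ranged over 7.29 to 32.7 TPM (median 15.9) against 0.0268 to 0.891 TPM (median 0.418), a difference of 5.52 (SE 0.19, adjusted p = 5.87e-14). The libraries of the 2 fractions did not overlap for either gene, and in all 11 cultures with both fractions the PSC library was the higher one. Sema6d and Sema4c were the other PSC-side semaphorins, with log2 fold changes of 2.08 ± 0.18 and 2.01 ± 0.15. In TPM the libraries of the fractions did not overlap for either, while in CPM those of Sema6d did.

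On the organoid side the leading semaphorins were Sema4d, Sema3e, Sema4a and Sema4g. Sema4d, the membrane ligand of plexin B1, stood at 0.0535 to 1.10 TPM (median 0.321) in PSC and 9.95 to 17.3 TPM (median 14.3) in organoid libraries, on the log2 scale a difference of -5.81 (SE 0.45, adjusted p = 2.78e-09). Sema3e, the class 3 semaphorin that binds plexin D1 without a neuropilin, stood at 0.181 to 1.79 TPM (median 0.642) and 24.9 to 35.6 TPM (median 30.1), a change of -5.47 (SE 0.17, adjusted p = 1.39e-14). These levels sum all its transcripts, and Sema3e-202, annotated as a retained intron, held 66.8% of the organoid level. Sema4a, a membrane semaphorin also known from T cells and the retina, had the highest mean TPM of the organoid ligands, at 72.4 ± 15.9. Its range was 47.2 to 92.6 TPM (median 77.1) against 1.43 to 5.45 TPM (median 3.42) in PSCs (-4.36 ± 0.17 on the log2 scale). For none of these 3 did a PSC library reach the lowest organoid library. Sema4g (-3.76 ± 0.14), Sema3c (-3.36 ± 0.57), Sema3b (-3.31 ± 0.13) and Sema4b (-2.04 ± 0.089) were also separated without overlap. Sema3c was the second organoid ligand by mean, at 70.4 ± 15.4 TPM, within the spread of Sema4a. Sema7a, the glycolipid-anchored semaphorin, and Sema3f, a secreted ligand that acts with neuropilin 2, passed with smaller differences of -1.11 ± 0.17 and -0.76 ± 0.21, and their libraries overlapped. Sema3d (-0.50, SE 0.32, adjusted p = 0.159) was low in both fractions, at 0.617 ± 0.508 and 0.702 ± 0.425 TPM, and Sema6a (-0.83, SE 0.43, adjusted p = 0.0840) varied by line on both sides, as described further on.

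The 3 slits divided between the cell types. Slit2 was the most abundant ligand of all in PSCs, at 73.4 to 201 TPM (median 151) against 1.05 to 15.6 TPM (median 11.1) in organoids, on the log2 scale a difference of 4.50 (SE 0.19, adjusted p = 1.21e-12). Slit3 ranged over 10.0 to 55.8 TPM (median 30.2) in PSCs and had 12 reads in all in the 11 organoid libraries, with a fitted change of 10.94 ± 0.40. Slit1, the slit best known from brain, went the other way, at 0.0342 to 0.522 TPM (median 0.104) in PSCs and 0.893 to 11.7 TPM (median 2.05) in organoids (-4.52, SE 0.28, adjusted p = 1.51e-10). All 3 were separated without overlap of libraries. By mean TPM the organoid level of Slit3 was 0.0607% of the PSC level and that of Slit2 6.41%. The part of PSC reads in these organoid levels was not tested.

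Of the netrins, Ntn1, the secreted founding member, ranged over 24.8 to 47.7 TPM (median 38.5) in PSCs and 0.0220 to 1.05 TPM (median 0.119) in organoids, on the log2 scale a difference of 7.75 (SE 0.17, adjusted p = 2.25e-16) with PSCs higher in 11 of 11 cultures. Ntn4, a netrin of basement membranes, differed less, at 11.7 ± 6.12 TPM in PSCs and 5.40 ± 1.69 in organoids (0.64, SE 0.25, adjusted p = 0.0252), and its libraries overlapped.

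Ephrins were mostly organoid genes at moderate differences. Efna5, a glycolipid-anchored ephrin, was at 3.0 ± 1.51 TPM in PSCs and 16.6 ± 2.27 in organoids (-2.62, SE 0.26, adjusted p = 6.37e-08), Efna1 at 17.4 ± 3.96 and 38.1 ± 7.19, and both were separated without overlap. Efna4 (-1.16 ± 0.12) and Efnb1 (-0.76 ± 0.18) were higher in organoids with libraries that overlapped in TPM, although those of Efna4 did not in CPM. Efna2 was the only ephrin past the test in the other direction, at 4.15 ± 1.62 TPM in PSCs and 0.897 ± 0.411 in organoids without overlap (1.9 ± 0.20). Efnb2, the transmembrane ephrin of arteries and lymphatics, was the most abundant ephrin in both fractions, at 61.9 ± 20.8 and 53.5 ± 3.93 TPM, with a difference of 0.051 (SE 0.18, adjusted p = 0.800), which did not pass.

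**Figure D2:**
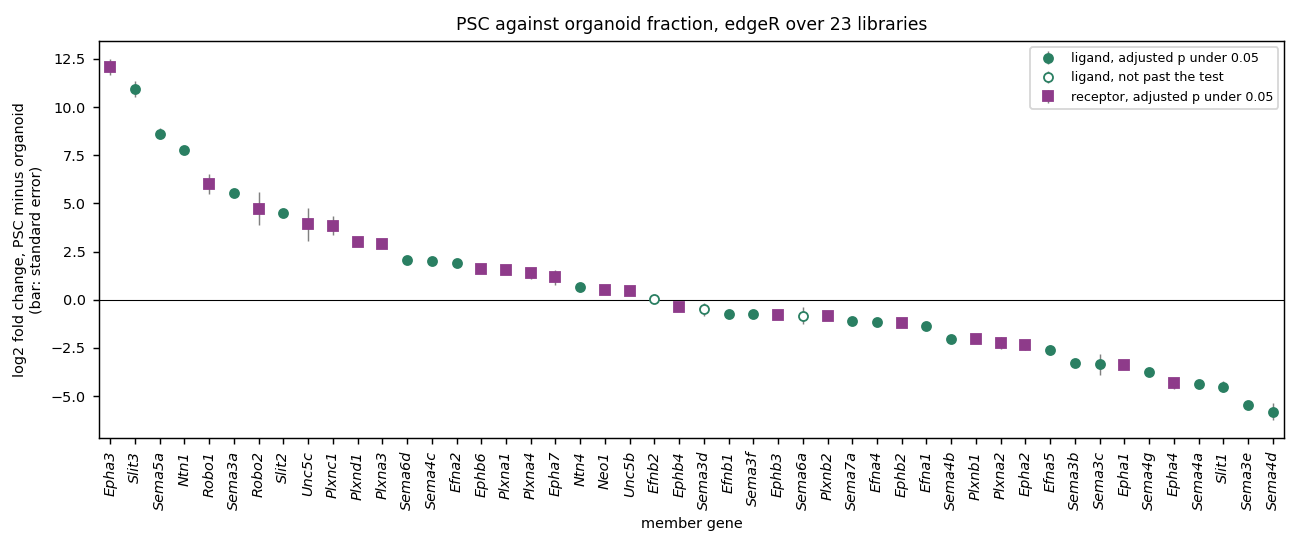
Log2 fold change of each of the 48 tested genes between PSC and organoid libraries, ordered by size, with the standard error as a bar. Circles are ligands and squares receptors, and the 3 open circles (Efnb2, Sema3d and Sema6a) did not pass the test; values run from 12.08 for Epha3 to -5.81 for Sema4d.

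Among the plexins Plxna1, Plxna3, Plxna4, Plxnc1 and Plxnd1 were higher in PSCs, and Plxna2 and both class B plexins in organoids. Plxnd1, the receptor of Sema3e, ranged over 17.2 to 55.2 TPM (median 32.8) in PSCs and 1.04 to 6.78 TPM (median 2.57) in organoids (3.02, SE 0.16, adjusted p = 1.4e-11). Plxna3, one of the class A plexins that pair with neuropilins, ranged over 17.6 to 32.7 TPM (median 22.0) and 1.33 to 3.52 TPM (median 2.54) (2.89, SE 0.094, adjusted p = 2.58e-14), and Plxna1 stood at 50.3 ± 7.29 and 13.6 ± 1.05 TPM (1.54 ± 0.044). These 3 did not overlap between fractions. Plxnc1, the receptor of Sema7a, and Plxna4 were higher in PSCs but low in both, at 0.380 ± 0.347 and 0.843 ± 0.449 TPM there (3.84 ± 0.49 and 1.37 ± 0.29 on the log2 scale). Plxna2 (-2.24, SE 0.30, adjusted p = 2.95e-06) and Plxnb1, the Sema4d receptor (-2.04 ± 0.22), were higher in organoids with overlapping libraries. Plxnb2 had the highest mean TPM of all 23 receptors in both fractions, at 185 ± 25.4 in PSCs and 306 ± 56.8 in organoids. It was higher in organoids in 11 of 11 cultures (-0.83 ± 0.049).

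Robo1 and Robo2, the slit receptors, were low beside their ligands. Robo1 ranged over 0.356 to 10.5 TPM (median 1.68) in PSCs and 0 to 1.08 TPM (median 0.0162) in organoids (6.01, SE 0.52, adjusted p = 1.31e-08), higher in PSCs by TPM in 10 of 11 cultures. By CPM the organoid library was the higher one in the cultures of T12-LOH with clone A3 and with clone B4. Robo2 was at 0.749 ± 0.965 and 0.261 ± 0.452 TPM, at 0 in 2 PSC and 7 organoid libraries, with a difference of 4.71 (SE 0.85, adjusted p = 0.000170). That call was lost with culture as a block (3.27, adjusted p = 0.138) and in cultures with WT PSCs alone (4.18, adjusted p = 0.0699). Both Robo genes varied by line within each fraction, as described further on.

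Of the netrin receptors, Neo1 (neogenin) was the most abundant, at 88.4 ± 21.3 TPM in PSCs and 55.2 ± 24.1 in organoids (0.50 ± 0.070), followed in PSCs by Unc5b, a vascular and repulsive receptor, at 83.5 ± 52.2 against 39.4 ± 7.93 (0.43, SE 0.17, adjusted p = 0.0279). Unc5c, a repulsive netrin receptor, stood at 1.28 ± 1.04 and 0.219 ± 0.282 TPM (3.90, SE 0.85, adjusted p = 0.000459). All 3 were higher in PSCs over all libraries, with libraries that overlapped. For Unc5b the PSC excess was larger in the cultures with KO PSCs, at 328 CPM on average against 145 in organoids grown with KO PSCs. In the cultures with WT PSCs its mean CPM was lower in PSCs, at 154 against 171, while its mean TPM was higher, at 46.4 against 43.3. The ranges of these WT libraries overlapped. By TPM the PSC library was the higher one in 10 of 11 cultures.

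The Eph receptors held the largest difference of the whole set. Epha3 ranged over 14.7 to 59.1 TPM (median 29.5) in PSCs and had 8 reads in all in the organoid libraries, 4 of which had any, with a fitted log2 fold change of 12.08 ± 0.43. Epha4, a receptor that binds ephrins of both classes, ranged over 0.477 to 3.80 TPM (median 1.97) in PSCs and 23.4 to 39.1 TPM (median 30.3) in organoids (-4.33, SE 0.29, adjusted p = 5.37e-10). Epha1 (-3.41 ± 0.16) and Epha2 (-2.37 ± 0.23) were also organoid genes without overlap. Epha2, an epithelial receptor often high in carcinoma, was the second organoid receptor by mean TPM. It ranged over 175 to 331 TPM (median 218) against 23.2 to 70.9 TPM (median 59.1) in PSCs. The remaining Eph receptors differed less. Ephb2, Ephb3 and Ephb4, receptors of the B-class ephrins, were higher in organoids, with log2 fold changes of -1.20 ± 0.081, -0.81 ± 0.10 and -0.38 ± 0.075. Ephb6, which lacks kinase activity, and Epha7 were higher in PSCs, at 1.62 ± 0.20 and 1.16 ± 0.40. The libraries of all 5 overlapped between the fractions.

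Ligands and receptors were then set side by side over 59 textbook ligand and receptor pairs. Both partners were higher in organoids in 18 pairs and both higher in PSCs in 15. In 14 pairs the ligand was higher in organoids and the receptor in PSCs, and in 5 the reverse. In the other 7, Efnb2, Sema6a or Dcc had no difference called or was not tested. The 14 were Plxnd1 with Sema3c, Sema3e and Sema4a, Sema3f with Plxna1 and Plxna3, Sema7a with Plxnc1, Slit1 with both Robo receptors, and Efna1, Efna4 and Efna5 with Epha3 and Epha7. Sema3e, for example, was at 30.1 ± 3.08 TPM in organoids where Plxnd1 was at 3.43 ± 1.98, and at 0.781 ± 0.523 in PSCs where Plxnd1 was at 33.2 ± 11.5. The protein-coding transcript of Sema3e alone was at 10.0 ± 1.66 TPM in organoids and 0.634 ± 0.512 in PSCs. The 5 reverse pairs were Sema3a with Plxna2, Sema4c with Plxnb2, and Efna2 with Epha1, Epha2 and Epha4. Slit2, Slit3 and Ntn1 shared the PSC side with Robo1, Robo2, Neo1, Unc5b and Unc5c. The sides are those of the main test. The Robo2 call was lost in the alternatives given above, and Robo2 was higher in PSCs in 6 of 11 cultures and in organoids in 3. By TPM Sema7a was higher in PSCs in 4 of 11 cultures and Epha7 in organoids in 4. Plxna4, Efnb1 and Ephb4 went against their called side in 3 cultures each, and some other members in fewer. For Unc5b the mean CPM in cultures with WT PSCs went the other way. Ligands recur in several pairs, so the counts describe the pairs and are not independent of each other.

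Other genes of the same pathways, from a list of 34 further guidance ligands and receptors, leaned to PSCs. Of 23 tested, 16 were higher in PSCs, 4 higher in organoids and 3 did not pass, with a median log2 fold change of 3.27. The semaphorin co-receptors Nrp1 and Nrp2 were PSC genes, at 53.5 ± 25.0 and 84.9 ± 21.1 TPM against 1.86 ± 1.48 and 4.32 ± 1.91 in organoids, whereas the class 3 ligands Sema3b, Sema3c and Sema3e were higher in organoids. Rgma, a neogenin ligand (8.68 ± 0.22), and Vasn (3.27 ± 0.11) were also PSC genes, and L1cam, a neural adhesion molecule (-4.38 ± 0.23), Sema4f (-5.15 ± 0.27), Sema6b (-2.17 ± 0.12) and Flrt3 (-5.39 ± 0.42) were the 4 higher in organoids. Of 31 intracellular transducers tested, 15 were higher in PSCs, 12 in organoids and 4 did not pass. The kinase Fyn (5.53 ± 0.12) and the collapsin response protein Dpysl3 (5.97 ± 0.24) were among the PSC-side transducers, and the ephexin Ngef (-4.88 ± 0.19) and Ablim1 (-2.59 ± 0.087) among the organoid-side ones.

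Some members also differed in the transcript that carried their reads. Of Sema3b reads as TPM, Sema3b-205 (3191 bases) held 46.7% in PSCs and 6.26% in organoids, and Sema3b-202 (2875 bases) 3.84% and 68.3%. Sema4b-204 held 45.6% in PSCs and 66.6% in organoids, and Slit2-216 41.1% and 61.7%. Of Sema3e, the transcript annotated as a retained intron, Sema3e-202, held 22.0% in PSCs and 66.8% in organoids. The protein-coding Sema3e-201 held 78.0% and 33.1%, and in PSCs both shares ranged over 0 to 100%. The range over libraries did not overlap between fractions for Sema3b-205 (28.0 to 70.9% against 2.77 to 10.9%), whereas it did for Sema4b-204 and Slit2-216. These shares were not tested, and Salmon assigns reads between transcripts of 1 gene by a model.

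In PSCs the Egfr genotype moved no axon guidance gene past the test. Of 47 members tested between 8 KO and 4 WT libraries, 0 passed in edgeR, against 0.0638% of 14107 genes (0.0213% higher and 0.0425% lower). At an unadjusted p under 0.05 there were 12 members, against 1937 of all 14107 genes, and DESeq2 called 7 members. Counts of members called by DESeq2 or in other refits, here and below, are given without the count over all genes. They therefore do not set the members apart from other genes. The median size of the difference was 0.43 on the log2 scale among members and 0.17 among all genes. Egfr itself was lower by on the log2 scale a difference of -1.15 (SE 0.34, adjusted p = 0.225), which did not pass either.

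The members with the smallest p were Ephb4, Robo2, Sema6a, Efna1, Plxnd1 and Neo1. Ephb4, the venous receptor of Efnb2, stood at 44.4, 48.9, 55.8 and 82.9 CPM in the WT libraries and over 66.2 to 95.5 CPM (median 82.4) in the KO libraries, on the log2 scale a difference of 0.50 (SE 0.13, adjusted p = 0.170). Every KO library was higher than the matched WT library in the 3 PSC4 co-cultures, while in the PSC5 co-culture WT stood at 82.9 CPM and the clones at 83.8 and 81.0. Efna1 stood at 16.2, 14.9, 18.5 and 14.1 CPM in WT and 8.62 to 17.5 CPM (median 12.3) in KO libraries (-0.39, SE 0.11, adjusted p = 0.191), and was lower than the matched WT library in 8 of 8 KO libraries although the groups overlapped. Plxnd1 stood at 62.7, 52.4, 57.2 and 96.4 CPM in WT and 78.4 to 149.6 CPM (median 113) in KO libraries (0.77, SE 0.22, adjusted p = 0.206), higher in 7 of 8. Neo1 stood at 233, 187, 229 and 211 CPM in WT and 213 to 399 CPM (median 275) in KO libraries (0.42, SE 0.12, adjusted p = 0.206), higher in 8 of 8. The groups overlapped for all 4 of these genes.

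Robo2 and Sema6a had the largest KO differences and showed them in clones of 1 parent. Robo2 was at 1.21, 1.43 and 1.23 CPM in PSC4 Rosa with T6-LOH, T12-LOH and T69A, at 0.0442, 0.0922 and 0.137 in clone A3 and at 0, 0.0773 and 0 in clone B4. In the PSC5 family it was at 3.0 CPM in Rosa, 3.79 in C5 and 4.56 in D4. Sema6a followed the same pattern, with 9.65, 6.73 and 8.33 CPM in PSC4 Rosa, 0.971, 0.799 and 0.501 in A3 and 0.111, 0.618 and 0.0434 in B4, against 6.83 in PSC5 Rosa, 17.7 in C5 and 8.91 in D4. Both KO clones of PSC4 thus lay below every WT library and both KO clones of PSC5 above their own WT library. The pooled log2 fold changes were -3.34 (SE 0.88, adjusted p = 0.178) and -3.34 (SE 0.91, adjusted p = 0.190). Without the PSC5 Rosa library 2 members, Robo2 and Ephb4, passed in edgeR. With the libraries of 1 PSC line treated as correlated in limma, the Sema6a difference was 0.027 with an adjusted p of 1.

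A test of whether the KO difference itself differed between PSC5 and PSC4 clones called 0 of 47 members, with 0% of all 14107 genes called. At an unadjusted p under 0.05 there were 9 members, against 683 of all genes, and DESeq2 called 2 members. Those 2 were Robo2, with a difference of 4.93 (SE 1.20, adjusted p = 0.736) in edgeR, and Sema6a, with 5.08 (SE 1.49, adjusted p = 0.900). The next members by p were Ephb4 (-0.68 ± 0.18), Ephb2 (0.76 ± 0.24), Efna2 (-1.44 ± 0.52) and Efna5 (2.42 ± 0.91). Each PSC5 line has 1 library, so its values have no replicate of their own.

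In organoids the genotype of the neighbouring PSCs went with small differences in 9 members. Of 42 tested between 7 libraries grown with KO PSCs and 4 grown with WT PSCs, 2 were higher and 7 lower with KO PSCs (21.4%), against 10.3% of 13939 genes (4.28% higher and 6.05% lower). The 2 higher ones are ligands, Sema4a and Sema3d, and the 7 lower ones are the ligands Sema7a, Efna1 and Sema4c and the receptors Plxnd1, Ephb3, Plxnb1 and Ephb2. The median size of the difference was 0.18 on the log2 scale among members and 0.12 among all genes. The fibroblast markers moved with this comparison, at a summed 4.93 to 23.0 CPM (median 7.82) in organoid libraries grown with WT PSCs and 1.69 to 6.24 (median 2.90) in those grown with KO PSCs. The more abundant of these markers stood, at the median of each organoid library, at 0 to 0.179% of their PSC level in CPM. For Plxnd1, a gene higher in PSCs, mean TPM over all organoid libraries was 10.3% of its PSC mean, which is a different measure. The part of the markers in these differences was not tested.

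Plxnd1 had the smallest p. It stood at 8.07 CPM with WT PSCs and 3.77 and 6.11 with KO PSCs in T6-LOH with PSC4, at 14.0 against 5.93 and 5.44 in T6-LOH with PSC5, at 14.3 against 8.90 and 9.78 in T12-LOH, and at 27.6 against 14.5 in T69A. Every KO value was below the WT value of its own co-culture, although the groups overlapped across co-cultures, and the log2 fold change was -0.90 (SE 0.13, adjusted p = 0.00473). Sema7a was at 8.71 CPM against 6.28 and 6.54, 15.3 against 7.71 and 6.41, 83.2 against 48.8 and 61.9 and 34.2 against 14.9 in the same order, also lower in 7 of 7 (-0.82, SE 0.13, adjusted p = 0.00768). Sema4a was at 102 CPM against 127 and 113, 85.5 against 104 and 110.2, 65.7 against 72.1 and 76.5 and 127 against 138, higher in 7 of 7 (0.22, SE 0.051, adjusted p = 0.0239). Plxnd1 and Sema7a passed in all 11 refits that left out 1 library, and Sema4a in all except the one without the WT library of T6-LOH with PSC5 (adjusted p = 0.127).

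**Figure D3:**
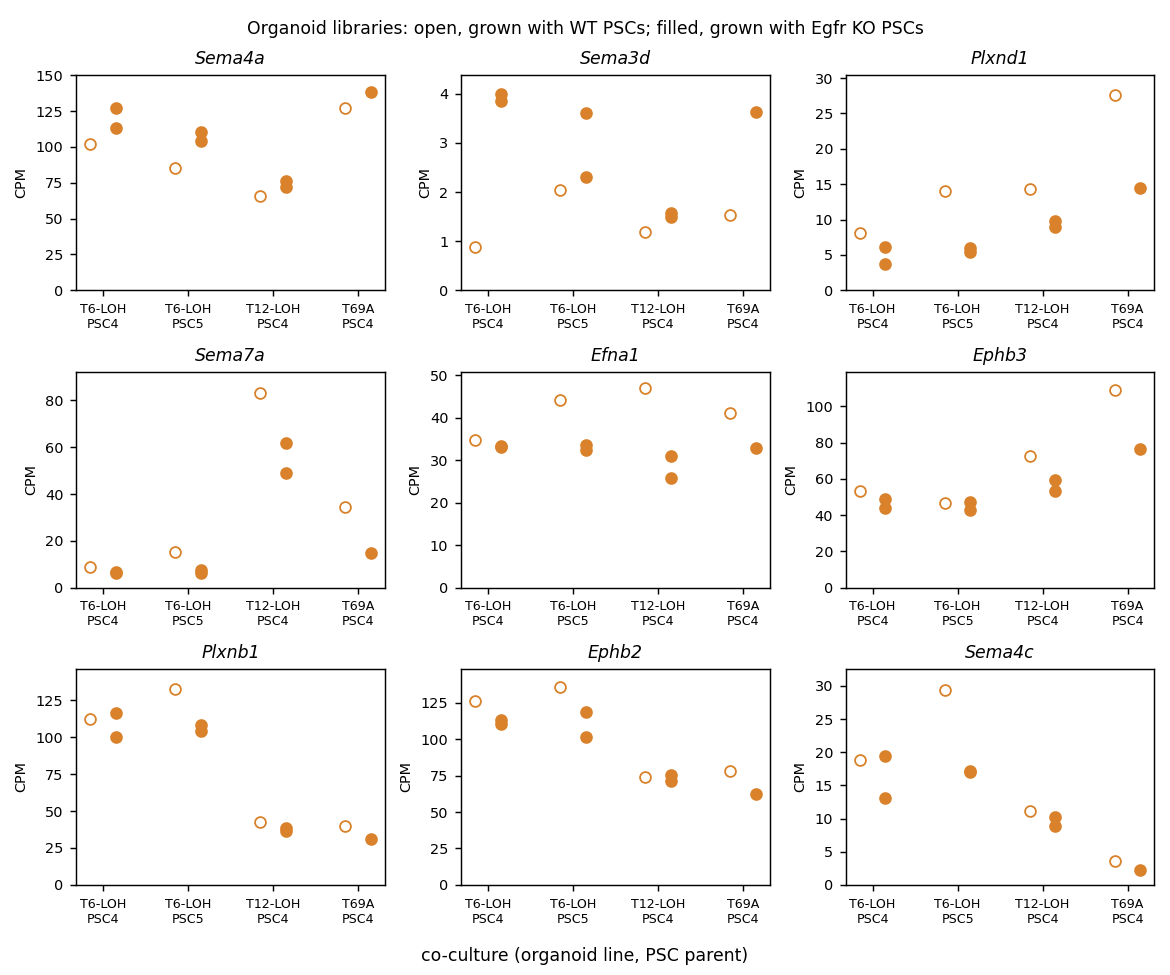
CPM of the 9 genes past the test in each organoid library, by co-culture; open circles are organoids grown with WT PSCs and filled circles with Egfr KO PSCs. Within each co-culture the filled points of Plxnd1, Sema7a and Efna1 lie below the open point and those of Sema4a and Sema3d above it.

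The other 6 each lost the call without some single libraries. Efna1 stood at 34.7, 44.2, 46.9 and 41.2 CPM with WT PSCs in T6-LOH (beside PSC4, then PSC5), T12-LOH and T69A and at 25.9 to 33.6 CPM (median 33.0) with KO PSCs (-0.40, SE 0.092, adjusted p = 0.0253), and the 2 groups did not overlap. Sema3d, a low secreted semaphorin, was at 0.877, 2.04, 1.19 and 1.54 CPM and 1.5 to 3.99 CPM (median 3.62) (1.02, SE 0.27, adjusted p = 0.0348), higher than the matched WT library in 7 of 7. The EphB receptors Ephb3 (-0.28, SE 0.070, adjusted p = 0.0298) and Ephb2 (-0.21, SE 0.059, adjusted p = 0.0451), were lower in 6 of 7 libraries each. Plxnb1 (-0.22, SE 0.059, adjusted p = 0.0345) and Sema4c (-0.45, SE 0.13, adjusted p = 0.0467) were also lower in 6 of 7. Without the T69A libraries 3 members passed, Plxnd1, Sema7a and Sema4a, and 0 when co-culture was left out of the model. Leaving out single libraries left 3 members without either T69A library, without the WT or the D4 library of T6-LOH with PSC5, 4 without A3 with T12-LOH, and 5 without A3 or C5 with T6-LOH. DESeq2 called 13.

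Of the further guidance genes 3 of 13 tested passed, all lower with KO PSCs, namely Sema4f (-0.92 ± 0.17), Vasn (-0.35 ± 0.078) and Efna3 (-0.39 ± 0.11). Of the transducers 4 of 30 passed, the redox enzyme Mical1, downstream of plexins, being lower (-0.96 ± 0.14), as was Arhgef11 (-0.18 ± 0.047), with Mical2 (0.23 ± 0.056) and Ablim1 (0.18 ± 0.046) higher. Nrp1 (-0.23, SE 0.19, adjusted p = 0.448) and Nrp2 (-0.15, SE 0.15, adjusted p = 0.542) did not pass.

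Whether the genotype difference differed between the fractions was tested directly, and 1 of 48 members passed, against 0.539% of 15573 genes (0.315% higher and 0.225% lower). For Plxnd1 the log2 fold change of KO over WT was 0.77 in PSCs, which did not pass on its own, and -0.90 in organoids, and the difference between the fractions was 1.67 (SE 0.29, adjusted p = 0.0209). The next members were Ephb4 (0.56, SE 0.15, adjusted p = 0.100), Sema6a, Unc5b, Neo1 and Ephb3, which did not pass in edgeR. At an unadjusted p under 0.05 there were 13 members, against 2459 of all 15573 genes, and DESeq2 called 7 members. The 2 fractions of 1 culture are not independent samples, and that link was not part of the model.

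PSC lines differed from each other in most members. Among the 9 libraries of PSC4 Rosa and clones A3 and B4, each grown with the same 3 organoid lines, 33 of 47 members differed between the 3 lines (70.2%, against 53.6% of 14093 genes). Of these, 15 are ligands and 18 receptors. Clone B4 differed from clone A3, both KO clones of 1 parent, in 27 of 47 members, 14 higher and 13 lower (57.4%, against 49% of genes, 24.4% higher and 24.6% lower). Among the 3 lines 8 of 12 fibroblast, 4 of 5 endothelial and 1 of 12 epithelial markers tested also differed, and their part in the differences between lines was not tested.

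Several members were nearly lost or gained in clone B4. Unc5c stood at 7.29, 14.9 and 7.44 CPM in PSC4 Rosa, 4.50, 6.98 and 5.33 in A3 and 0.0740, 0 and 0.130 in B4, with T6-LOH, T12-LOH and T69A in that order, a fitted log2 fold change of B4 over A3 of -6.33 (SE 0.48, adjusted p = 7.85e-05). Sema3c, a secreted ligand of plexin D1 with neuropilins, stood at 33.2, 20.8 and 35.2 CPM in Rosa, 24.7, 31.0 and 31.3 in A3 and 0.629, 1.55 and 1.04 in B4, in the same order of partners (-4.78, SE 0.34, adjusted p = 0.000137). Sema4d went the other way, at 0.202, 0.286 and 0.429 CPM in Rosa, 0.132, 0.0922 and 0.228 in A3 and 2.70, 1.93 and 2.17 in B4 (3.91, SE 0.41, adjusted p = 0.000238). For these 3 genes the B4 libraries did not overlap those of the other PSC4 lines. Robo1 stood at 11.0, 6.41 and 10.3 CPM in Rosa, 7.24, 4.27 and 6.38 in A3 and 1.37, 1.47 and 1.3 in B4 (-2.09, SE 0.21, adjusted p = 0.000185), and stood at 24.7, 41.7 and 36.6 in PSC5 Rosa, C5 and D4.

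Abundant members differed between the clones too. Epha2 stood at 155, 139 and 154 CPM in Rosa, 141, 129.7 and 138 in A3 and 48.5, 50.9 and 47.7 in B4, with the smallest p of B4 against A3 (-1.49, SE 0.063, adjusted p = 1.15e-05). Efnb2 stood at 242, 215 and 210.3 CPM in Rosa, 170.3, 153 and 186 in A3 and 78.3, 87.4 and 68.9 in B4 (-1.14, SE 0.11, adjusted p = 0.000206). Unc5b was highest in B4 with each partner, at 164, 77.7 and 179.9 CPM in Rosa, 274, 121 and 278 in A3 and 537, 257 and 626 in B4 (1.06, SE 0.058, adjusted p = 3.24e-05), and each line had its lowest value with T12-LOH. Slit2 (-0.81 ± 0.082) and Efna5 (-1.19 ± 0.27) were lower in B4. Plxnb1 (1.41 ± 0.14), Plxna2 (1.99 ± 0.24), Ntn4 (1.57 ± 0.16), Efnb1 (1.08 ± 0.12), Sema3f (1.08 ± 0.12) and Sema4c (0.69 ± 0.076) were higher in B4. Robo2 and Sema6a, low in both clones, did not differ between them past the test (-1.63, SE 1.0, adjusted p = 0.214, and -1.57, SE 0.68, adjusted p = 0.0964). Of the further guidance genes 8 were higher and 6 lower in B4 among 21 tested.

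**Figure D4:**
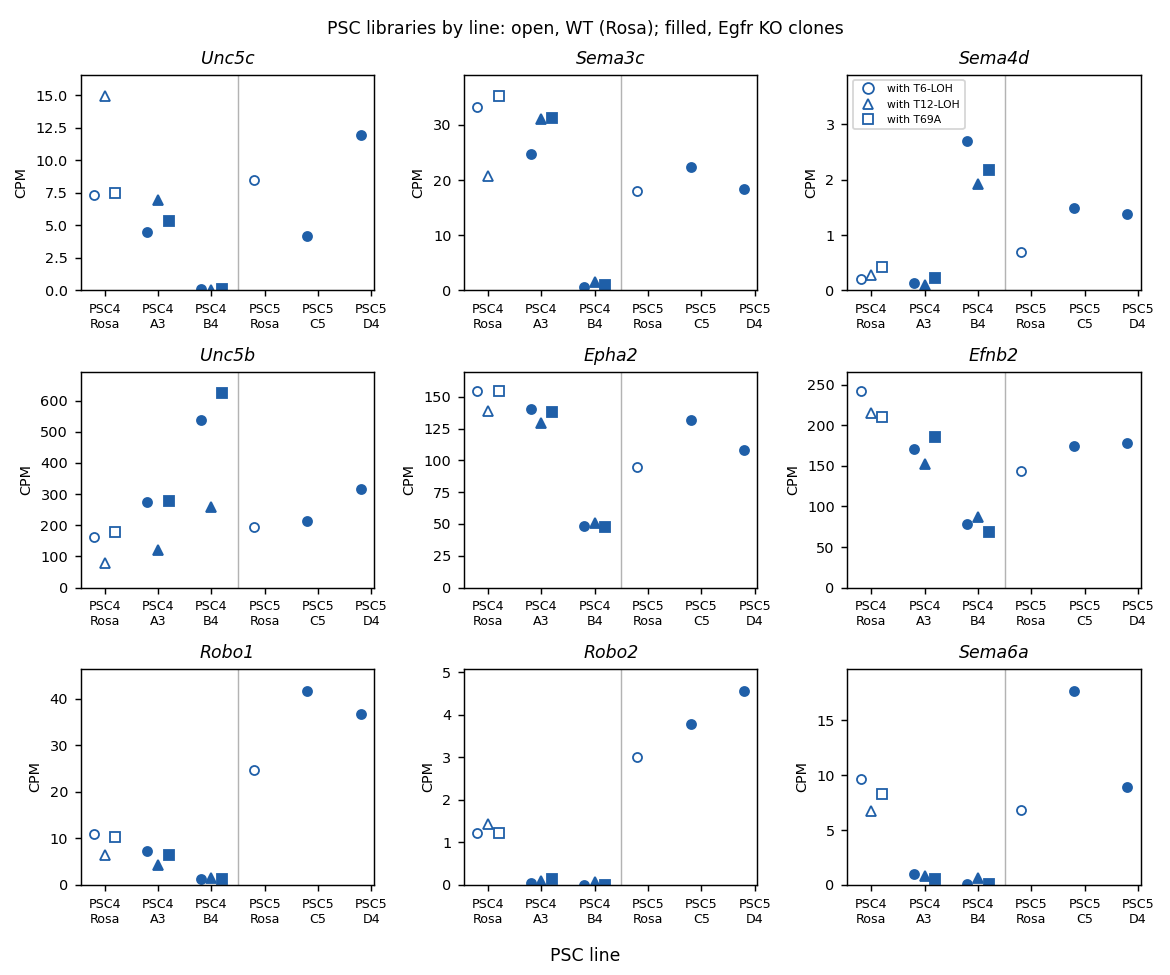
CPM of 9 members in each PSC library by line; open symbols are WT (Rosa), filled symbols Egfr KO clones, and the shape gives the organoid partner. B4 lies at or near 0 for Unc5c and Sema3c, above the other PSC4 lines for Sema4d and, with the same partner, for Unc5b, and below them for Epha2, Efnb2 and Robo1, while Robo2 and Sema6a are near 0 in A3 and B4 but not in C5 or D4.

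PSC levels also varied with the organoid line they were grown with. In the same 9 libraries 16 of 47 members differed between the 3 partners (34%, against 21.1% of genes), 6 ligands and 10 receptors. Unc5b had the smallest p, with log2 fold changes from T6-LOH of -1.08 for T12-LOH and 0.11 for T69A (adjusted p = 0.000495). Efnb1 followed with -1.22 and -0.19 (adjusted p = 0.00307), Epha3 with -0.92 and -0.32 (adjusted p = 0.00334), Plxna2 with -2.29 and -0.89 (adjusted p = 0.00645) and Ntn4 with -1.11 and -0.57 (adjusted p = 0.0112). All 5 were lowest beside T12-LOH. Efnb1 stood at 27.6, 37.4 and 67.3 CPM beside T6-LOH in Rosa, A3 and B4, at 14.6, 12.2 and 29.3 beside T12-LOH and at 27.7, 27.2 and 63.6 beside T69A, so that within each line T12-LOH gave the lowest value. Slit2, in contrast, had a log2 fold change of 0.29 for T12-LOH from T6-LOH (adjusted p = 0.0162). Each adjusted p here is of the 3 partners tested together, not of T12-LOH alone. Epithelial markers in the same PSC libraries were at a median 0.145 to 0.225% of their organoid level with T6-LOH, 0.103 to 0.299% with T12-LOH and 0.509 to 0.740% with T69A. Between partners 9 of 12 epithelial and 9 of 12 fibroblast markers differed, the fibroblast markers with a median log2 fold change of -0.69 for T12-LOH from T6-LOH. Their part in the result was not tested. The count of 16 fell to 8 without WT with T69A, 7 without A3 with T69A, 10 without WT with T6-LOH, 7 without A3 with T6-LOH and 5 without A3 with T12-LOH.

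Between the PSC parents, compared beside T6-LOH in a fit over all 12 PSC libraries, 0 of 48 members passed in edgeR, against 0.618% of 14405 genes (0.382% higher and 0.236% lower). At an unadjusted p under 0.05 there were 13 members, against 2406 of all genes, and DESeq2 called 5 members. The smallest p were those of Ephb2, lower in PSC5 lines (-1.0, SE 0.19, adjusted p = 0.0524), Robo2 (5.21, SE 1.25, adjusted p = 0.0930), Robo1 (2.65, SE 0.79, adjusted p = 0.146), Sema3b (1.0, SE 0.31, adjusted p = 0.159), Sema6a (3.69, SE 1.23, adjusted p = 0.179) and Plxnb2 (0.32, SE 0.12, adjusted p = 0.239). Ephb2, an Eph receptor with kinase activity, stood at 18.5, 33.6 and 33.6 CPM in PSC5 Rosa, C5 and D4 and at 54.3, 66.4 and 47.5 in PSC4 Rosa, A3 and B4, without overlap.

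The organoid lines differed in most members. Between T12-LOH (3 libraries) and T6-LOH (6 libraries) 37 of 45 members passed, 21 higher and 16 lower (82.2%, against 63% of 14750 genes, 31.7% higher and 31.3% lower). Between T69A (2 libraries) and T6-LOH 33 of 45 passed, 22 higher and 11 lower (73.3%, against 53.8%, of which 26.7% higher and 27.1% lower). Both comparisons use the same T6-LOH libraries, so their values are given side by side only.

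T12-LOH organoids carried receptors that the other lines had at or near 0. Robo1 was at 2.82, 4.71 and 5.32 CPM in the T12-LOH libraries with WT, A3 and B4 PSCs, at 0.0302, 0, 0.0707, 0.0340, 0 and 0.0689 in the T6-LOH libraries and at 0.0454 and 0.128 in T69A (6.77, SE 0.41, adjusted p = 1.75e-08 for T12-LOH over T6-LOH). Robo2 was at 1.59, 1.77 and 1.5 CPM in T12-LOH, had 1 read in 1 of the 6 T6-LOH libraries and none in T69A (adjusted p = 2.56e-07, with no fold given for 1 read). In no T6-LOH or T69A library did either gene reach the T12-LOH level. The PSCs grown with the T12-LOH organoids had 1.43, 0.0922 and 0.0773 CPM of Robo2 in Rosa, A3 and B4. Ntn1 was at 2.64, 3.32 and 3.05 CPM in T12-LOH and 0.212 to 0.723 in T6-LOH (2.86, SE 0.29, adjusted p = 2.29e-06). The fibroblast markers in the T12-LOH libraries were at a median of 0.0540, 0.0107 and 0.0224% of their PSC level. Ntn1 in PSC libraries stood at 71.6 to 141 CPM, and the part of PSC reads in its organoid level was not tested. Markers of other cell types moved with the line. In T12-LOH against T6-LOH all 3 endothelial markers tested were higher, with a median log2 fold change of 3.29, 3 of 4 immune markers were lower and 1 higher, and 2 of 6 fibroblast markers were higher and 1 lower. In T69A 1 of 3 endothelial markers was higher, 3 of 4 immune markers were lower and 3 of 6 fibroblast markers higher. Summed endothelial markers were at 0.611 to 5.28 CPM over all organoid libraries and immune markers at 11.2 to 32.0 CPM. Their part in the differences between lines was not tested.

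Semaphorins shifted with the line as well. Sema6a was at 33.0, 30.8 and 30.7 CPM in T12-LOH, 2.72, 4.48, 5.30, 2.62, 2.51 and 4.17 in T6-LOH and 6.30 and 7.05 in T69A (3.14, SE 0.19, adjusted p = 7.87e-08, and 0.94, SE 0.24, adjusted p = 0.00572). Sema7a was at 83.2, 48.8 and 61.9 CPM in T12-LOH and 34.2 and 14.9 in T69A against 6.28 to 15.3 in T6-LOH, with overlap of T69A and T6-LOH (2.96, SE 0.16, adjusted p = 8.82e-08, and 1.35, SE 0.19, adjusted p = 0.000192). Sema6d was higher in both lines than in T6-LOH, by 2.78 ± 0.19 in T12-LOH and 2.46 ± 0.21 in T69A. Sema3b was lower in T12-LOH (-1.70, SE 0.077, adjusted p = 1.64e-09) and Sema4g lower in T12-LOH (-1.41 ± 0.088) but higher in T69A (0.98 ± 0.089). Sema3a was lower in both, at 0.652, 0.871 and 0.815 CPM in T12-LOH, 0.0907 and 0.0427 in T69A and 1.60 to 2.72 in T6-LOH (-1.57, SE 0.26, adjusted p = 0.000159, and -5.00, SE 0.48, adjusted p = 2.36e-06). Sema4c was lower in T69A, at 3.63 and 2.26 CPM against 13.2 to 29.3 in T6-LOH (-2.79, SE 0.23, adjusted p = 1.05e-06).

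**Figure D5:**
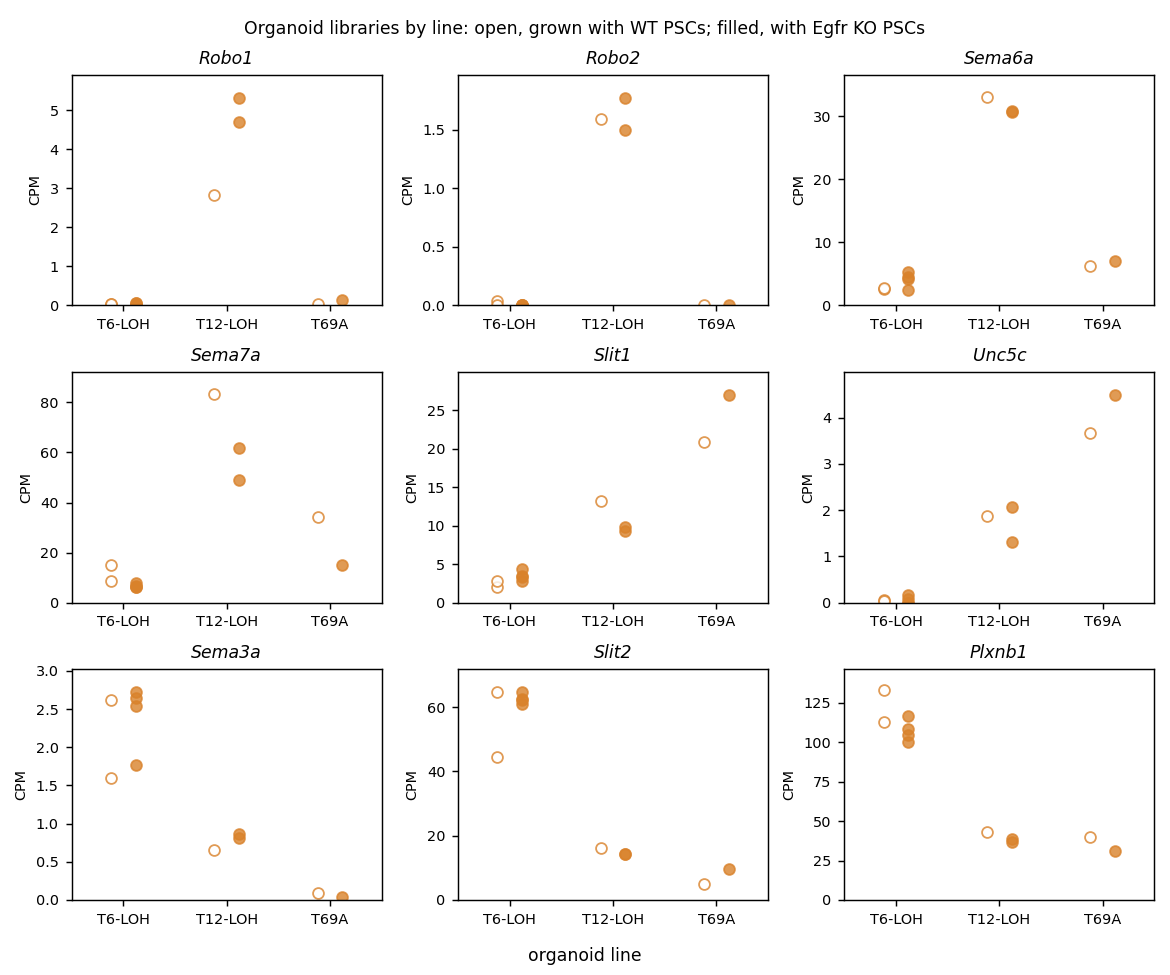
CPM of 9 members in each organoid library by organoid line; open circles are organoids grown with WT PSCs, filled circles with Egfr KO PSCs. Robo1, Robo2, Sema6a and Sema7a are highest in T12-LOH, Slit1 and Unc5c in T69A, and Sema3a, Slit2 and Plxnb1 in T6-LOH.

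Slit1 and Slit2 ran in opposite order across the organoid lines. Slit2 was at 44.5, 62.3, 62.6, 64.7, 61.1 and 64.8 CPM in T6-LOH, 16.3, 14.2 and 14.2 in T12-LOH and 5.03 and 9.78 in T69A (-2.0, SE 0.17, adjusted p = 3.08e-06, and -3.0, SE 0.23, adjusted p = 2.41e-06). Slit1 was at 2.84, 3.32, 2.83, 2.0, 4.43 and 3.51 CPM in T6-LOH, 13.2, 9.80 and 9.31 in T12-LOH and 20.9 and 27.0 in T69A (1.79, SE 0.19, adjusted p = 6.1e-06, and 2.96, SE 0.21, adjusted p = 3.9e-07). The 3 lines did not overlap for either gene.

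Receptors of the other systems followed the lines too. Unc5c was at 3.67 and 4.49 CPM in T69A, 1.88, 1.32 and 2.06 in T12-LOH and 0 to 0.176 in T6-LOH (6.07, SE 0.52, adjusted p = 9.24e-07, and 4.84, SE 0.51, adjusted p = 2.67e-06). Neo1 was at 116 to 121 CPM in T6-LOH, 306, 269.9 and 258 in T12-LOH and 249.9 and 238 in T69A (1.23, SE 0.048, adjusted p = 4.69e-10, and 1.03, SE 0.055, adjusted p = 1.67e-08). Plxnb1 was at 100.1 to 133 CPM in T6-LOH, 42.8, 38.7 and 36.8 in T12-LOH and 39.8 and 30.9 in T69A (-1.51, SE 0.073, adjusted p = 2.56e-09, and -1.71, SE 0.088, adjusted p = 1.24e-08). T6-LOH did not overlap the other lines for any of these 3. Epha2 was higher in both lines (0.62 ± 0.070 and 0.65 ± 0.080) and Ephb2 lower in both (-0.67 ± 0.068 and -0.78 ± 0.081), while Epha7 was higher in T69A by 2.43 ± 0.21. Plxnb2, the receptor with the highest mean TPM over all organoid libraries, was lower in T12-LOH (-0.63, SE 0.046, adjusted p = 1.04e-07). In T69A its difference was 0.060 (SE 0.052, adjusted p = 0.360). That ranking does not hold in every library. In organoid libraries grown with WT PSCs Epha2 reached 331 TPM and Plxnb2 went down to 223. Nrp1 was at 8.80, 9.25 and 9.61 CPM in T12-LOH and 0.136 and 0 in T69A against 2.79 to 5.03 in T6-LOH. Of the 16 further guidance genes tested, 8 were higher and 4 lower in T12-LOH, and 4 higher and 7 lower in T69A.

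The PSC parent that T6-LOH organoids were grown with moved no member past the test. Between organoids beside PSC5 and PSC4 lines 0 of 45 passed in edgeR, against 0.507% of 14387 genes (0.236% higher and 0.271% lower). At an unadjusted p under 0.05 there were 7 members, against 2282 of all genes, and DESeq2 called 1 member, Epha4. Epha4 stood at 122, 115 and 113 CPM beside PSC5 Rosa, C5 and D4 and 99.5, 95.1 and 98.5 beside PSC4 Rosa, A3 and B4, without overlap (0.25, SE 0.058, adjusted p = 0.0726). Sema4a (-0.19 ± 0.065), Sema4b (0.24 ± 0.089), Efna2 (0.80 ± 0.31), Plxnd1 (0.43 ± 0.18) and Plxna4 (0.92 ± 0.41) followed by p.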

How the data were processed

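The 23 libraries were quantified by the authors with Salmon 1.9.0, and GRCm39 (mm39) is the build named, per the submitters' processing notes. The deposited values used were estimated counts and TPM per transcript. How reads were trimmed and whether the kit kept the strand were not given in the sources used here. Of 117135 transcripts, 115973 (99.0%) matched a gene name in GENCODE M21 and gave 35523 genes, and unmatched transcripts held 0.364 to 0.443% of the counts of a library and were left out.

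Estimated counts were summed per gene, rounded to whole numbers and tested with edgeR 4.0.16 in R 4.3.3 (TMM scaling, filterByExpr, robust quasi-likelihood F test, Benjamini-Hochberg adjustment over all genes tested, threshold 0.05). Further terms were co-culture in the genotype comparisons, co-culture and PSC genotype within each fraction in the fraction comparison, organoid partner or PSC line among the PSC4 lines, and PSC genotype among organoid lines and between PSC parents. CPM uses TMM factors over all 23 libraries, and SEs were derived from the fitted log2 value and its F. DESeq2 1.42.0 and limma 3.58.1 were alternatives, beside DESeq2 size factors, no filter on low counts, other blocks and leaving out single libraries. The fits were tested on simulated counts. Precision is set by the number of libraries, from 2 to 12 a group. Promoter sequences are from RefSeq on GRCm38.p6, and coordinates are of that build only.

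Named genes were, between fractions, up to 12 members a direction with the largest change among those past the test. In the other comparisons they were up to 8 a direction by p among those past the test, filled to 6 by p where fewer passed. Further pathway genes were up to 4 a direction. The members, gene lists and rules were chosen with earlier results of these data known.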

Additional observations from a re-analysis of the deposited data

Results flagged for a closer look

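In groups of 4 to 8 libraries, 1 library lay far from the others for 14 of the genes, in 16 of 179 groups examined (8.94%). The cut-off used gives about 1 in 20 by chance among replicates of 1 kind. These groups mix organoid lines, PSC parents or clones, so that rate does not apply to them.

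In the 4 organoid libraries grown with WT PSCs, the T12-LOH library stood apart for 4 genes. It had 20.5 CPM of Sema3b against a median of 77.8, 33.0 CPM of Sema6a against 4.51, 2.82 CPM of Robo1 against 0.0397 and 2.64 CPM of Ntn1 against 0.310. The T69A library of the same group had 226 CPM of Unc5b against 153.

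In the 7 organoid libraries grown with KO PSCs, the T69A library had 27.0 CPM of Slit1 against a median of 4.43, 23.3 CPM of Ntn4 against 11.6, 225 CPM of Unc5b against 132 and 6.96 CPM of Epha7 against 1.69. The T12-LOH library with clone A3 had 25.9 CPM of Efna1 against 33.0.

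In the 4 WT PSC libraries, PSC5 Rosa had 1.64 CPM of Sema3d against a median of 0.853, 23.4 CPM of Plxnb1 against 10.6 and 3.0 CPM of Robo2 against 1.33. PSC4 Rosa with T12-LOH had 14.9 CPM of Unc5c against 7.97.

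In the 8 PSC libraries labelled KO, clone A3 with T12-LOH had 6.33 CPM of Sema3e against a median of 2.01, and clone D4 had 16.1 CPM of Epha7 against 4.66. Most of these libraries are the only ones of their line in the group.

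The Egfr genotype difference of Plxnd1 differed between the fractions by 1.67 on the log2 scale in the test of that difference in edgeR.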

How the results depend on the processing

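Of 2205 refitted values of named genes, 2056 kept their direction and side of the threshold, 123 lost the call, 25 gained one and 1 reversed. The reversed value was the Sema6a difference between KO and WT PSCs, 0.027 in limma with PSC line as a random term. DESeq2 called more members than edgeR where edgeR called 0 or 1, namely 7 for KO against WT PSCs, 7 for the difference between fractions, 2 for the difference between PSC parents' clones, 5 for PSC5 against PSC4 lines and 1 for the PSC parent beside organoids. Without the filter on low counts 1 member was called in each of the last 2 comparisons. In the organoid genotype comparison 3 members passed without the T69A libraries and 0 without the co-culture term.

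Leaving out single libraries gave 43 to 46 members between fractions, 0 to 2 between KO and WT PSCs, 3 to 12 in the organoid genotype comparison, 26 to 34 among PSC4 lines, 21 to 29 between clones B4 and A3, 5 to 20 among partners, 0 to 1 between PSC parents, 34 to 39 and 23 to 35 for T12-LOH and T69A against T6-LOH, and 0 to 1 for the PSC parent beside organoids. These are counts of members only, without the counts over all genes. The causes were not tested.

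The main test between fractions did not pair them by culture. In an alternative fit with culture as a block 42 members differed between fractions, and 36 in cultures with WT PSCs alone. Low counts limit Robo2, Unc5c, Epha3 and Slit3 in the fraction where each was near 0, and PSC5 lines rest on 1 library each.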
